A study of Homo sapiens with 8 samples.

Results

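The genes examined were those of the ERBB receptors and their ligands. The 9 members were EGFR, ERBB2 and ERBB3 among the receptors, and AREG, EREG, TGFA, HBEGF, NRG1 and BTC among the ligands. They were taken by gene symbol, through their Ensembl identifiers, from a table of 43869 genes, and all 9 were found. H3122 is a lung adenocarcinoma line driven by the EML4-ALK fusion. Treatment-naive H3122 cells were compared with 3 derivatives that had evolved resistance to an ALK inhibitor under gradually increased doses, namely erCriz0 in 0.5 µM crizotinib, erAlec0 in 2 µM alectinib and erLor0 in 2 µM lorlatinib. All 4 share the H3122 background and had DMSO vehicle in their medium, and before RNA isolation the inhibitors were left out for 48 h. The published methods give this pause for RNA and do not give it for ChIP-seq. Each line gave 1 RNA-seq library and 1 H3K27ac ChIP-seq library, so differences between lines were not checked against replicates and were not tested.

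ERBB receptors are tyrosine kinases of the cell surface that signal as pairs. EGFR binds amphiregulin, epiregulin, TGF-alpha, HB-EGF and betacellulin, encoded by AREG, EREG, TGFA, HBEGF and BTC. HER3, encoded by ERBB3, binds neuregulins such as the product of NRG1, while HER2, encoded by ERBB2, has no known ligand and serves as a partner of the others. Most of these ligands are made as membrane-bound precursors that proteases cut from the cell surface. In ALK-driven lung cancer, signalling through these receptors is a known way for cells to survive ALK inhibition.

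Levels are rlog values, log2 normalized read counts that DESeq2 shrinks toward a gene's average when it has few reads. A change is the value in a resistant line minus that in naive cells, and a gene or peak was called up at 1 or more and down at −1 or less. Where 3 values are given without names, they are for erCriz0, erAlec0 and erLor0, in this order. Genes that reached log2 of 25 reads, which is 4.64, in at least 1 library are called expressed. There were 12701 of these, and all 9 members were among them. The list of epithelial and lung adenocarcinoma markers had 8 of 11 genes expressed, or 7 of 10 without ALK, the kinase of the fusion, which changed by 2.47, 1.40 and −0.08. EPCAM and KRT18 were among those expressed. NAPSA and SFTPB were not expressed, at no more than 4.23 and 2.03, and SFTPC, which marks type II alveolar cells, was listed at 0 in every library. None of the 4 leukocyte markers was expressed. Of the 4 fibroblast markers, only COL1A1 was expressed, at 9.49 to 10.08. DCN and PDGFRB were not expressed, at no more than 2.20, and COL3A1 was absent from the data. Of the 3 endothelial markers, CDH5 changed by 0.18, 1.68 and 1.54, with PECAM1 and VWF at 0.19 or less. All 4 lines were cultures of H3122 cells, and the part of these markers in the results was not tested. In bulk samples, fewer cells of a type and less RNA per cell cannot be told apart.

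In RNA, 1 member was up in erCriz0, 2 were up in erAlec0 and 1 was down in erLor0. Among all expressed genes, erCriz0 had 2.65% up and 1.65% down, erAlec0 had 2.46% and 2.07%, and erLor0 had 1.1% and 0.74%. With 9 genes, a single member is already a larger share than each of these. The median change of the members was 0.13, 0.58 and 0.30 in erCriz0, erAlec0 and erLor0, against −0.02, 0.00 and −0.00 over all expressed genes. The receptors EGFR and ERBB3 were higher than in naive cells in all 3 lines, and so were the ligands AREG and NRG1. EREG was lower in all 3.

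**Figure D1:**
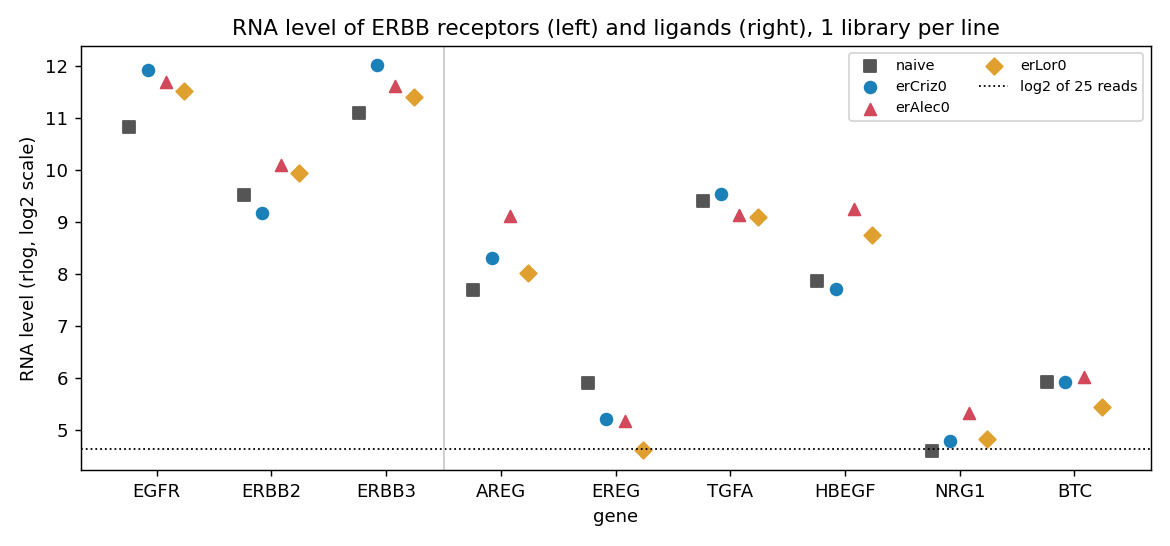
RNA level (rlog, log2 scale) of the 3 receptor genes and 6 ligand genes in naive, erCriz0, erAlec0 and erLor0 cells, with 1 point for each library and a dotted line at log2 of 25 reads. EREG is highest in naive cells at 5.91, while HBEGF is highest in erAlec0 at 9.24 and next in erLor0 at 8.75.

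EGFR RNA stood at 10.84 in naive cells and 11.93, 11.69 and 11.51 in erCriz0, erAlec0 and erLor0. Every resistant library was thus above the naive one, and only the change in erCriz0, of 1.09, reached the limit. ERBB3 RNA had the same order of lines, at 11.10 in naive cells and 12.02, 11.61 and 11.40 in erCriz0, erAlec0 and erLor0. Its changes of 0.91, 0.51 and 0.30 all stayed under the limit. ERBB2 RNA had another order, at 9.52 in naive cells and 9.18, 10.09 and 9.95 in erCriz0, erAlec0 and erLor0. PGAP3 and MIEN1 overlap ERBB2 on the opposite strand, and the sources used here do not give the strand setting of the counting, so reads of the overlap cannot be told apart.

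Levels of different genes were compared per kilobase of exon, as the rlog less log2 of the exon length. That length covers the exons of all annotated transcripts of a gene, merged, and which transcripts were present was not measured. On that scale ERBB3 was the highest receptor in every line, at 7.55 in naive and 8.47 in erCriz0 cells, followed by EGFR and then ERBB2. Before division by length, EGFR was above ERBB3 in erAlec0 and erLor0. The difference between EGFR and ERBB2 in level per kilobase was 0.69 in naive cells and 2.12, 0.97 and 0.94 in erCriz0, erAlec0 and erLor0. The erCriz0 library was therefore the one where ERBB2 lay farthest below EGFR. ERBB4, the other neuregulin receptor, was not expressed, with levels between 1.67 and 1.88.

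AREG RNA was 7.70 in naive cells and 8.31, 9.11 and 8.02 in erCriz0, erAlec0 and erLor0. The change of 1.41 in erAlec0, 2.66-fold on this scale, was exceeded by 0.84% of expressed genes. HBEGF RNA was 7.87 in naive cells and 7.71, 9.24 and 8.75 in erCriz0, erAlec0 and erLor0. HBEGF was thus up in erAlec0 by 1.37, close to the limit in erLor0 at 0.87, and near the naive level in erCriz0 at −0.17. HB-EGF and amphiregulin are both EGFR ligands, and AREG differed from HBEGF in erCriz0, where its change was 0.61.

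EREG RNA was 5.91 in naive cells and 5.21, 5.17 and 4.62 in erCriz0, erAlec0 and erLor0. Its changes were −0.70, −0.74 and −1.29, and in erLor0 it was down, with 0.31% of expressed genes changed further downward. The erLor0 value lies just under the level called expressed, and rlog understates changes of such low genes. AREG and EREG lie next to each other on chromosome 4, and the difference between them in level per kilobase widened from 3.59 in naive to 4.90, 5.74 and 5.20 in erCriz0, erAlec0 and erLor0 cells.

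TGFA RNA was 9.41 in naive cells and 9.54, 9.14 and 9.10 in erCriz0, erAlec0 and erLor0. These libraries lay within 0.31 of the naive one. Per kilobase, HBEGF was below TGFA by 0.82 in naive cells and by 1.12 in erCriz0, and above it by 0.82 in erAlec0 and 0.36 in erLor0. BTC was 5.92 in naive cells and 5.92, 6.02 and 5.45 in erCriz0, erAlec0 and erLor0. NRG1, the lowest member per kilobase in every line, had an RNA level of 4.60 in naive cells and 4.79, 5.32 and 4.83 in erCriz0, erAlec0 and erLor0. The naive value is under the level called expressed, and the largest change, 0.72 in erAlec0, was under the limit. The rank of NRG1 per kilobase rests on a merged exon length of 21.37 kb, against 5.71 kb for EREG. Before division by length, NRG1 was above EREG in erAlec0 and erLor0.

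Of 49 other genes of the pathway, all were in the table and 41 were expressed. In erCriz0, 1 was up and 1 down. The erAlec0 library had 2 up and 1 down, and erLor0 had none in either direction. Among all expressed genes, erCriz0 had 2.65% up and 1.65% down. The same shares were 2.46% and 2.07% in erAlec0, and 1.1% and 0.74% in erLor0. SOCS3, a feedback inhibitor of cytokine and growth factor signalling, changed by 2.32, 1.24 and 0.35 in erCriz0, erAlec0 and erLor0. ERRFI1, whose product binds and inhibits active EGFR, changed by −0.31, 1.01 and 0.62. ERRFI1 and HBEGF thus had the same order of lines, which ERBB2 and RHBDF1, among others, had as well. PIK3R1, a regulatory subunit of PI3-kinase, changed by 0.35, −1.11 and −0.71, and the kinase gene SRC by −1.14, −0.69 and −0.32.

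Among the 6 other ligands and receptor, EGF alone was expressed, with changes of 0.08, 0.70 and 0.65, and EPGN was listed at 0. NRG4, another neuregulin, stayed under the expressed level with changes of −0.46, −0.93 and −0.72. None of the 7 genes of ligand release, of which 5 were expressed, was up or down. Over all expressed genes, at most 2.65% were called in either direction in any line. Of these 7, RHBDF1, whose product helps the sheddase ADAM17 mature, changed by −0.46, 0.85 and 0.22, and RHBDF2 by −0.64, −0.02 and 0.48. In the group of 17 adaptors and relay genes the median change was 0.29, 0.27 and 0.16, and in the 18 expressed negative regulators it was 0.07, 0.23 and 0.13.

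Expressed genes within 500 kb of a member were counted to place its change in its surroundings. None was up or down among the 3 neighbours of EGFR, the 35 of ERBB3, the 9 of TGFA and the 1 of NRG1. Near AREG and EREG, the chemokine gene CXCL2 changed by 0.36, 1.95 and 1.00 in erCriz0, erAlec0 and erLor0, and CXCL1 by −0.41, 1.23 and 0.39. CXCL2 and AREG were both up in erAlec0, while EREG, which lies between them, was lower. Near ERBB2, PPP1R1B changed by 0.82, 1.14 and 0.99, and near HBEGF, IGIP changed by 1.11, 0.54 and 0.02.

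For each member, the 3 expressed genes with the most similar changes in the 3 lines were found by Euclidean distance over the 3 changes. EGFR was closest to C1orf116, at a distance of 0.15, then NMNAT2 and KALRN. ERBB2 was closest to DEGS2, at 0.05, then MAP3K9 and HS1BP3, and ERBB3 to VCAN, at 0.06, then EMBP1 and ENSG00000287263. Among the ligands, AREG was closest to ADAMTSL4-AS2, at 0.19, then SHC2 and GCNA, and EREG to B3GNT6, also at 0.19, then STS and IGSF9B. TGFA was closest to METTL14, at 0.03, then MIER3 and RSRC2. HBEGF was closest to CPE, at 0.09, then MPRIP and EPN2. NRG1 was closest to FRMD5, at 0.04, then GRB7, an adaptor of ERBB receptors, and RIMKLB, and BTC to ERH, at 0.09, then ZNF701 and CLN8-AS1. The 3 changes share the naive library, and these names are a description.

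H3K27ac marks active promoters and enhancers. Peaks of it were paired by the authors with every gene within 20 kb, and 136 of the 126470 peaks were paired with a member. NRG1 had 38 of these, EGFR 32, ERBB2 24, ERBB3 16, TGFA 15, BTC 5, HBEGF 4 and AREG and EREG 1 each. In erCriz0, 15.4% of the member peaks were up and 3.68% down, against 7% and 5.94% of all peaks. In erAlec0, 4.41% were up and 14% down, against 14.1% and 9.41%. In erLor0, 4.41% were up and 8.82% down, against 7.45% and 8.82%. NRG1 carried 15 of the 21 peaks that were up in erCriz0 and 11 of the 19 that were down in erAlec0. Without its peaks, 98 remained, of which 6.12% were up in erCriz0 and 8.16% down in erAlec0, both under the shares over all peaks. The peaks of a gene lie near each other and are not independent.

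Peaks over gene starts and those inside genes were higher in like shares in erCriz0 and in different shares in erAlec0 and erLor0. Of 16 peaks at a member's transcription start, 10 were higher than in naive cells in erCriz0, 11 in erAlec0 and 12 in erLor0. Of 96 peaks inside a gene, 64 were higher in erCriz0, 28 in erAlec0 and 24 in erLor0. NRG1 had 35 and EGFR 30 of these 96, so the shares inside genes rest largely on NRG1 and EGFR. Such shares by position were not computed over all peaks. Level moves with this split, since peaks with a mean rlog of 9 or more had median changes over the whole table of 0.24, 0.10 and 0.23, and those between 3 and 5 of −0.14, −0.10 and −0.11. Its part in the difference was not tested.

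**Figure D2:**
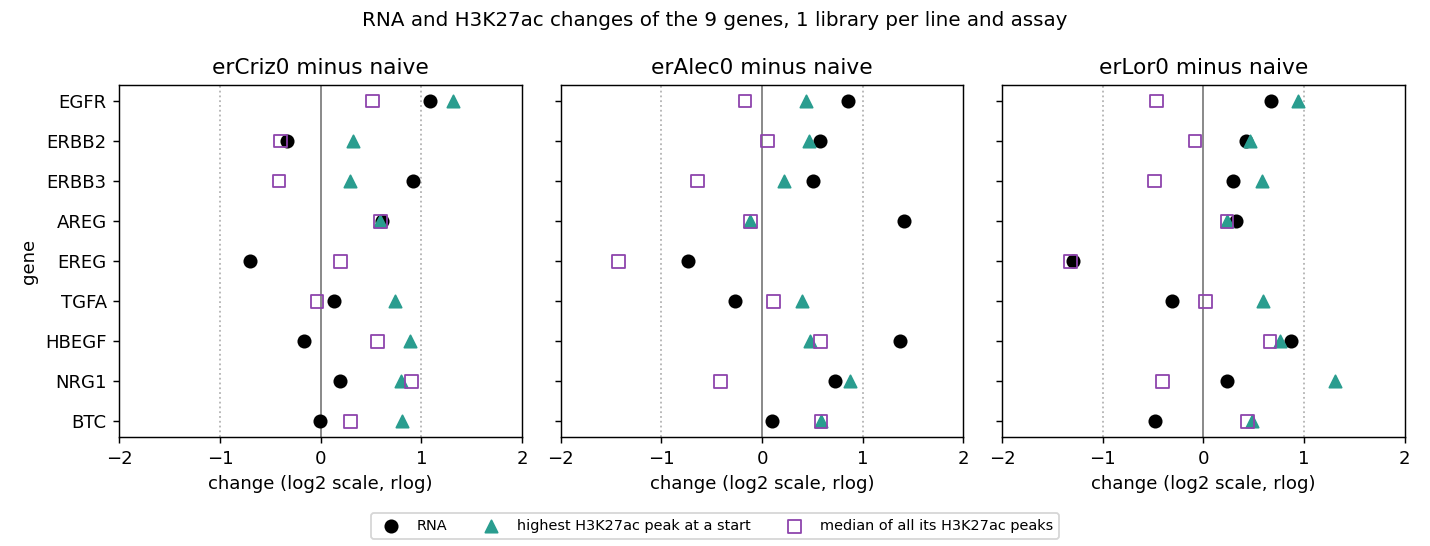
Changes from naive cells on the log2 scale for each of the 9 genes, with RNA as filled circles, the highest H3K27ac peak at a transcription start as triangles and the median of all paired peaks as open squares. EREG has no peak at a start. In erAlec0, EGFR has RNA at 0.85 and its start peak at 0.44 to the right of 0, with the median of its peaks at −0.17.

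The peak over the EGFR start, at chr7:55017525-55020704, had levels of 7.82 in naive cells and 9.14, 8.26 and 8.76 in erCriz0, erAlec0 and erLor0. It was higher in every resistant line, as RNA was, by 1.32, 0.44 and 0.94, and by 1.00, 0.25 and 0.61 beyond the median of peaks of similar level. Of the other 31 peaks of EGFR, erCriz0 had 26 above the naive level, erAlec0 had 8 and erLor0 had 4. In erCriz0 most of them thus had the direction of the start peak, and in erAlec0 and erLor0 most had the opposite one. Over all 32 peaks the median changes were 0.51, −0.17 and −0.46. The other 187 peaks within 5 Mb had medians of 0.33, 0.10 and 0.16, and with these subtracted the EGFR median in erCriz0 was 0.18.

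The promoter is shown because the start peak covers it. RefSeq gives the window from 250 bases before to 50 after the start, at chr7:55018767-55019066 on the plus strand of hg38. Capitals mark the GC box GGGCGG on either strand, which binds SP1-type factors.
EGFR promoter: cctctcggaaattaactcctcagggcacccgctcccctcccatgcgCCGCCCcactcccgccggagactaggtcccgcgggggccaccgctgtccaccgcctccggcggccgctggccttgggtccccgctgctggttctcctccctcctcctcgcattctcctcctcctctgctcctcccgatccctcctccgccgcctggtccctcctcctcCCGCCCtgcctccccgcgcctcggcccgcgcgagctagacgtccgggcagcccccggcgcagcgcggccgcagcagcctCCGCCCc
The window holds 3 such matches. Of 34796 RefSeq promoter windows of the same length, 44.9% hold at least 1. No match was found to TGANTCA, the AP-1 motif, to GGAATG, the TEAD motif, or to TATAAA.

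Within the gene, 11 peaks between 45 and 80 kb from the start had median changes of 0.22, −0.83 and −0.72 in erCriz0, erAlec0 and erLor0. None of the 11 was higher in erAlec0 or erLor0, and several did not reach log2 of 15 reads, 3.91, in any library. The largest of the 11 by level was at chr7:55084995-55089263 in an intron. It stood at 6.76 in naive cells and 8.58, 5.74 and 5.89 in erCriz0, erAlec0 and erLor0. It rose by 1.82 in erCriz0, the largest rise at EGFR in any line, and fell by 1.03 in erAlec0. The largest fall, of 1.46 in erLor0, was at chr7:55064397-55065867. The longest peak of EGFR, of 9978 bases at chr7:55125655-55135632, had levels between 10.16 and 11.26 and changed by 0.59, −0.51 and −0.19. EGFR RNA was higher in all 3 lines, so these intronic peaks and RNA had opposite directions in erAlec0 and erLor0.

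The middle of the intronic peak with opposite changes is given as it stands in hg38, plus strand, chr7:55086979-55087278. The files give no summit, so the window is the central 300 bases.
EGFR intronic peak: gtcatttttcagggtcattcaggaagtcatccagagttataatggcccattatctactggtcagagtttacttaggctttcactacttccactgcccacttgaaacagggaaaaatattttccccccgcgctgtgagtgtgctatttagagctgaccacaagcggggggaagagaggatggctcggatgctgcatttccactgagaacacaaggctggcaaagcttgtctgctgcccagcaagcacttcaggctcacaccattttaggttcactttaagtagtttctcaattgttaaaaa
None of the 4 motifs occurs in these letters, so nothing is in capitals. Of the central windows of 95649 peaks of at least this length, 9.85% hold the AP-1 motif, 15.8% the TEAD motif, 14.6% the GC box and 15.1% TATAAA.

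**Figure D3:**
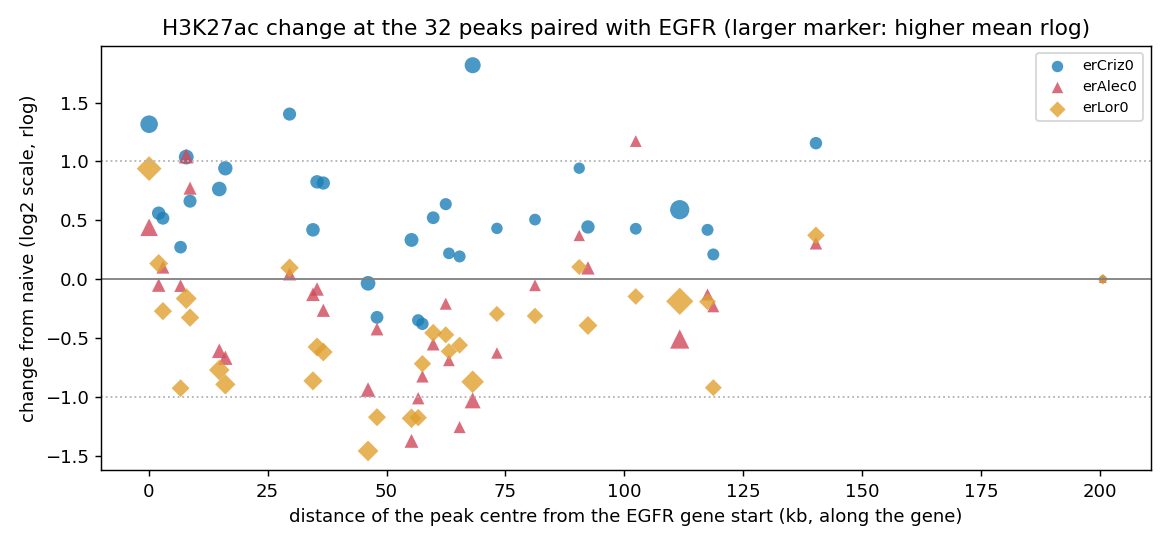
H3K27ac change from naive cells (log2 scale) at each of the 32 peaks paired with EGFR, against the distance of the peak centre from the gene start in kb, with 1 marker for each resistant line and larger markers for peaks of higher level. Between 45 and 80 kb the erAlec0 and erLor0 markers are all below 0, while at 68.11 kb the erCriz0 marker is at 1.82.

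ERBB3, on chromosome 12 from 56076799 to 56103505, had its highest and longest peak over a transcription start, 11228 bases at chr12:56077814-56089041. Its level was 11.27 in naive cells and 11.56, 11.48 and 11.85 in erCriz0, erAlec0 and erLor0, with changes of 0.29, 0.22 and 0.58. The largest RNA change was in erCriz0 and the largest change of this peak in erLor0. Over the 16 peaks the medians were −0.41, −0.64 and −0.49, and 15 of the peaks were also paired with other genes. Within 5 kb of the gene the medians in erAlec0 and erLor0 were −0.35 and −0.21, and the median in erCriz0 was −0.27 with the trend with peak level removed. The most negative change, −1.15 in erCriz0, was shared by the peaks starting at 56093272 and 56110403. The latter lies 6898 bases outside the gene. For ERBB2 all 24 peaks were paired with other genes as well, and 5 lay over a transcription start. The highest, at chr17:39698981-39710810 and centred 16.98 kb into the gene, stood at 11.50 in naive and between 11.82 and 11.97 in the resistant lines. The peak over the gene start itself, at chr17:39685612-39689398, changed by −0.02, 0.09 and 0.19. Another start peak, from 39715048, changed by −0.99, 0.06 and −0.13. Among the peaks paired with ERBB2, the largest rise was 1.03, in erLor0, at chr17:39667855-39668088. That peak lies 19826 bases outside the gene, over a start of PNMT. It stood at 2.14 in naive cells and 3.18 in erLor0, under log2 of 15 reads, 3.91, in every library. The largest fall, −1.21 in erCriz0, was at chr17:39731994-39732773, also outside the gene. The longest peak paired with ERBB2, 14236 bases at chr17:39735061-39749296, lies outside the gene and changed by −0.03, −0.36 and −0.07.

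AREG, on chromosome 4 from 74445136 to 74455005, had a single peak, at chr4:74444790-74445735 over its start. The level was 6.40 in naive cells and 6.99, 6.28 and 6.63 in erCriz0, erAlec0 and erLor0. The changes of 0.59, −0.12 and 0.23 do not follow those of RNA, which was highest in erAlec0, where the peak was the lowest of the 4 libraries. After quantile normalization the change in erCriz0 was 0.35. The promoter under the peak, at chr4:74444886-74445185 on the plus strand, is shown with a TATA box, TATAAA, and a GC box in capitals.
AREG promoter: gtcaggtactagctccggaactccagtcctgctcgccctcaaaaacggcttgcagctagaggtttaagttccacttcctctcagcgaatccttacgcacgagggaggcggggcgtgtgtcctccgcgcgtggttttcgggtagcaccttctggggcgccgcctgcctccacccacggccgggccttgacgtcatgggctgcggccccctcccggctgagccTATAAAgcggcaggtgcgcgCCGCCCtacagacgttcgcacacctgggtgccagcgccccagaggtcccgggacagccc
Of all RefSeq promoter windows, 11.6% hold TATAAA on either strand.

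EREG, on chromosome 4 from 74365145 to 74388749, also had a single peak, but in an intron, 10.25 kb from the start, at chr4:74373919-74376869. No peak was paired with it at its start. The level was 7.69 in naive cells and 7.88, 6.26 and 6.37 in erCriz0, erAlec0 and erLor0. The peak thus fell by 1.43 in erAlec0 and 1.32 in erLor0, and changed by 0.19 in erCriz0, while RNA was lower in all 3 lines. The other 471 peaks within 5 Mb had medians of −0.10, 0.18 and −0.02.

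HBEGF, on chromosome 5 from 140332843 to 140346603, had 4 peaks, each higher than in naive cells in all 3 lines. All were also paired with other genes. The start peak, at chr5:140345807-140346622, stood at 5.07 in naive cells and 5.95, 5.55 and 5.83 in erCriz0, erAlec0 and erLor0. Its difference from naive cells was smallest in erAlec0, where RNA was highest. The peak 9401 bases beyond the end of the gene, at chr5:140323042-140323442, stood at 2.99 in naive cells and 3.31, 4.60 and 4.12 in erCriz0, erAlec0 and erLor0. It was up in erAlec0 by 1.62 and in erLor0 by 1.13, the same 2 lines where HBEGF RNA was highest, and its naive and erCriz0 levels lay under log2 of 15 reads, 3.91. The promoter, on the minus strand at chr5:140346554-140346853, and the middle of the distal peak, on the plus strand at chr5:140323092-140323391, are shown with GC boxes in capitals.
HBEGF promoter: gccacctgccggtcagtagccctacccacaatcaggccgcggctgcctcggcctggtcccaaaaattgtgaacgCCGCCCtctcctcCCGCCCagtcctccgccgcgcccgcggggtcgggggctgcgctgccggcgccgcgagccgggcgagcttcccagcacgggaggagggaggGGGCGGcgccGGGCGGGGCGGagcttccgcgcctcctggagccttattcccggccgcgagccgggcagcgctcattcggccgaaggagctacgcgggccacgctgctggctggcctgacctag
HBEGF distal peak: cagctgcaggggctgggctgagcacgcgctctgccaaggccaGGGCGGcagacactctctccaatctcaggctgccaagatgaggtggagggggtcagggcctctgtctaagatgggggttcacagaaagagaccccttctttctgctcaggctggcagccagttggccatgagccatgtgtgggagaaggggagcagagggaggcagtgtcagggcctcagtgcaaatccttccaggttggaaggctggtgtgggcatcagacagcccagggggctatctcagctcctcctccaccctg
The promoter holds 5 GC boxes, and 44.9% of promoter windows hold at least 1. The distal window holds 1, and 14.6% of peak windows hold at least 1.

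**Figure D4:**
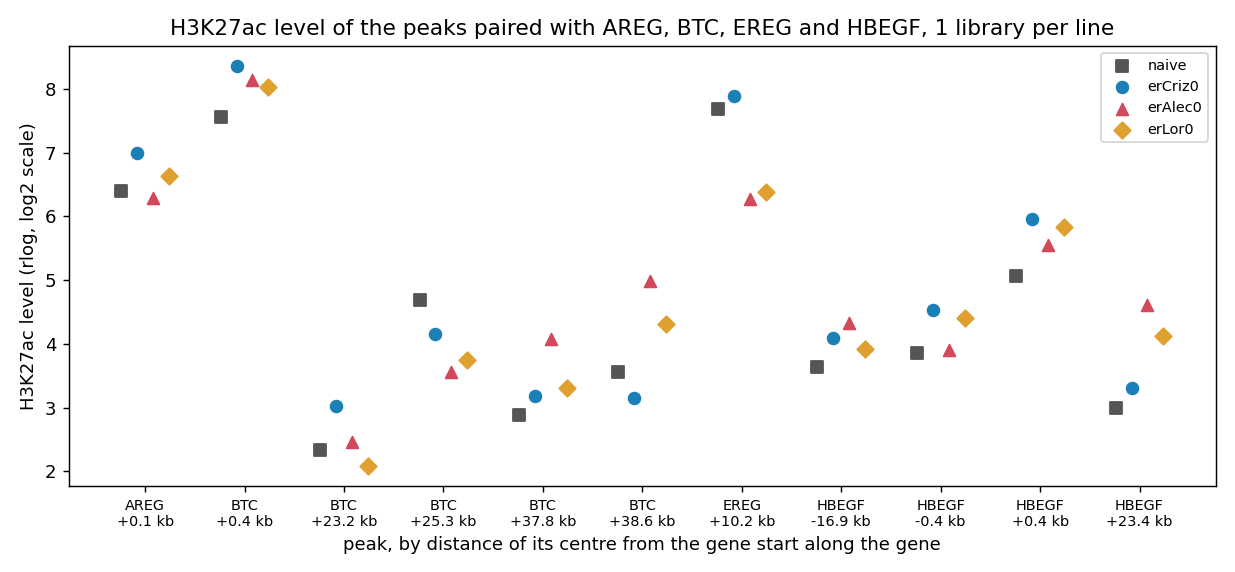
H3K27ac level (rlog, log2 scale) in the 4 libraries for each peak paired with AREG, BTC, EREG and HBEGF, named by the distance of its centre from the gene start in kb, where minus lies before the start. The EREG peak is at 7.69 in naive and 7.88 in erCriz0 cells, above 6.26 in erAlec0 and 6.37 in erLor0.

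TGFA, on chromosome 2 from 70447284 to 70554193, had its longest peak, 15806 bases, inside the gene at chr2:70521137-70536942. It stood at 11.28 in naive cells and 11.24, 12.10 and 11.89 in erCriz0, erAlec0 and erLor0. The mark was thus higher by 0.83 and 0.61 in the lines where TGFA RNA changed by −0.27 and −0.31. The start peak, at chr2:70551849-70555974, changed by 0.74, 0.40 and 0.60. Beyond the median of peaks of similar level, these changes were 0.47, 0.26 and 0.33. The largest rise at TGFA, of 1.20 in erLor0, was at chr2:70507045-70511750, and the peak just before the start, at chr2:70556262-70558923, rose by 1.13 in erCriz0, with −0.11 and −0.06 in the other lines. The most negative change, −0.70 in erLor0, was at chr2:70551425-70551665.

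Over the 9 RefSeq promoter windows of 7 members, the GC box was found in those of EGFR, AREG, TGFA, HBEGF and BTC. The AP-1 motif had 1 match in the window of ERBB2 and 2 in a second, internal window of EGFR at chr7:55109589-55109888, against 7.73% of all promoter windows with at least 1. The EREG window, at chr4:74364895-74365194, overlapped no peak of a member and held 1 match each to the TEAD and TATA motifs, and 14% of all windows hold the TEAD motif.

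BTC, on chromosome 4 from 74744759 to 74794523, had 5 peaks. The start peak, at chr4:74793322-74794967, was 7.55 in naive cells and 8.36, 8.14 and 8.03 in erCriz0, erAlec0 and erLor0. All 3 resistant libraries were higher, by 0.50, 0.39 and 0.16 beyond the median of peaks of similar level. BTC RNA changed by 0.10 in erAlec0 and by −0.48 in erLor0. Inside the gene, the peak at chr4:74755606-74756198 changed by −0.40, 1.43 and 0.75, and that at chr4:74768865-74769617 by −0.53, −1.12 and −0.94.

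NRG1, on chromosome 8 from 31639222 to 32855666, is the longest of these genes and had the most peaks. Its median peak change was 0.91, −0.41 and −0.41 in erCriz0, erAlec0 and erLor0, and the number of its 38 peaks that were higher was 31, 8 and 10. Over the 22 peaks that reached log2 of 15 reads in at least 1 library, the medians were 0.86, −0.92 and −0.45. With the median of the surrounding 5 Mb subtracted, the median in erLor0 was −0.23. The 458 other peaks within 5 Mb had medians of 0.03, −0.05 and −0.18. In erCriz0, 15 peaks were up and none down. In erAlec0, 1 was up and 11 down, and in erLor0, 3 were up and 7 down.

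These changes differed along the gene. In the first 250 kb the median over 19 peaks was 1.14, −0.69 and −0.51 in erCriz0, erAlec0 and erLor0. Between 250 and 400 kb, 6 peaks had medians of 0.64, −1.25 and −1.22, and all 6 were lower in erAlec0 and erLor0. The largest fall, of 1.62 in erAlec0, was at 31969372 to 31970845. Between 400 and 600 kb, 6 peaks had medians of 1.43, −0.12 and 0.34, with 4 of them up in erCriz0 and 4 higher than in naive cells in erLor0. Beyond 600 kb, 7 peaks had medians of −0.08, 0.18 and −0.08. There the peak at 32286418 to 32286974 changed by 0.65, 1.91 and 1.52. The longest peak of NRG1, 6531 bases at 32112961 to 32119491, changed by 0.29, −0.89 and 0.47.

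NRG1 has several transcription starts, and peaks at them differed. The peak at the first start, from 31639000 to 31639967, stood at 3.81 in naive cells and 5.82, 3.86 and 4.06 in erCriz0, erAlec0 and erLor0. The next, from 31640113 to 31641278, rose by 2.25 in erCriz0, the largest rise at NRG1. Both were near the naive level in erAlec0 and erLor0. The peak at a later start, from 32547875 to 32549164, was higher in all 3 lines, at 4.82 in naive cells and 5.62, 5.70 and 6.12 in erCriz0, erAlec0 and erLor0. NRG1 RNA was highest in erAlec0, where most of the peaks of the gene were lower. The values are per gene, and which start the RNA came from was not measured.

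**Figure D5:**
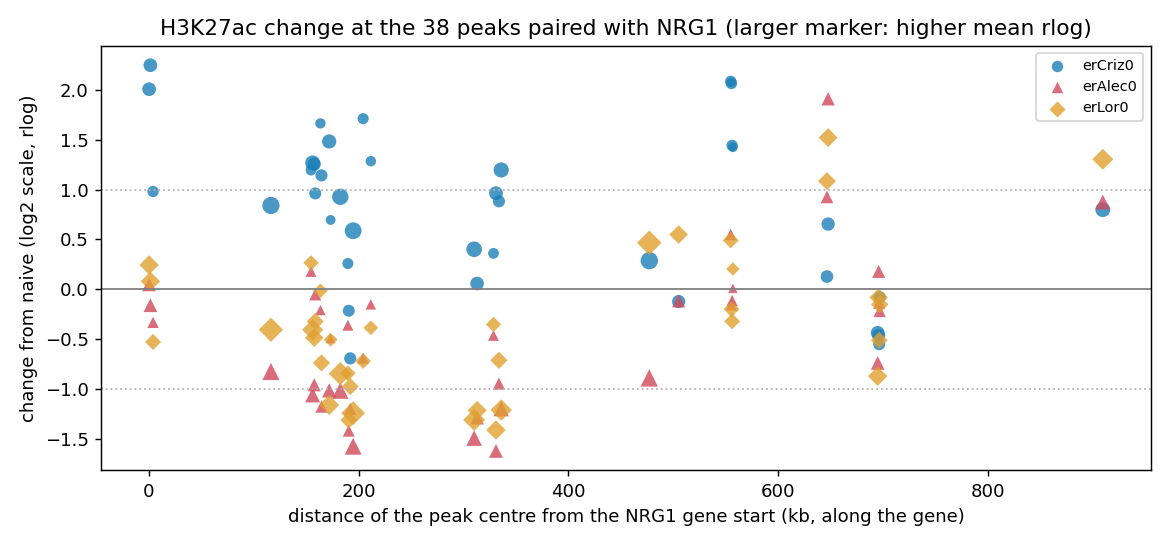
H3K27ac change from naive cells (log2 scale) at each of the 38 peaks paired with NRG1, against the distance of the peak centre from the gene start in kb, with 1 marker for each resistant line and larger markers for peaks of higher level. In the first 400 kb the erCriz0 markers are mostly above 0 and the erAlec0 and erLor0 markers mostly below 0.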

How the data were processed

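RNA-seq and H3K27ac values of 4 lines were used, with 1 library per line and assay. The series has 8 samples, and those other than these 4 lines were not analysed here. The authors deposited log2 values (DESeq2 rlog) for each peak and gene at most 20 kb apart. RNA was isolated after 48 h without inhibitors, aligned to hg38 with HISAT2 and counted with HTSeq-count. ChIP-seq reads of 75 nt were aligned with BWA, filtered at mapping quality 25 and free of duplicates, peaks were called with MACS2 at a q-value of 0.05 and merged over samples, and reads were counted with featureCounts. Versions are not given in the sources used here. The deposited table also holds the authors' means over libraries and their correlations between peak and gene with p-values, and none of these columns was used. Depth per library is unknown, since rlog values keep no counts, and no interval is given.

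Changes, medians, counts at a limit of 1, regional and neighbour values and motif matches were computed with Python 3.11.15, numpy 2.4.6 and pandas 2.3.3. Figures were drawn with matplotlib 3.10.9. Gene models came from GENCODE release 44 and promoters from RefSeq, where windows of 7 of the 9 members were used. Named were all members, pathway genes and neighbours past the limit or largest in their list, the most similar genes, and for each member the highest start peak, the longest peak and the largest rise and fall. The members and lists were chosen with earlier results of these data known. Other settings were centring, quantile normalization, other limits, filters and distances, regional medians and, added after seeing the data, removal of the trend with peak level in 50 bins and leaving out the peaks of NRG1. Functions were tested on simulated data. The sequence of 1 peak window is not reported here.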

Additional observations from a re-analysis of the deposited data

Results flagged for a closer look

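With 1 library per line, no sample can be compared with others of its group. Results were looked for that moved in opposite directions in 2 lines, and none of these differences was tested. For RNA changes and median peak changes of members, a size of at least 0.5 was required in both lines, and 0 of 20 opposite pairs reached it. This count rests on the peaks included, since the NRG1 median reached it between erCriz0 and erAlec0 with only peaks at the read minimum, at 0.86 and −0.92, and with the level trend removed, at 0.93 and −0.50. The nearest were the median peak change of EGFR, at 0.51 in erCriz0 and −0.46 in erLor0, and that of NRG1, at 0.91 in erCriz0 and −0.41 in both other lines. A limit of 0.4, which would have taken these in, was tried after the values were seen and was not kept. The look at single peaks, at a change of 1 in both lines, was added after the values were seen, and 7 of 140 opposite pairs reached it. Some peaks gave more than 1 of these pairs. The share over all peaks was not computed, so this count has no general rate beside it.

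The intronic peak of EGFR starting at 55084995 was 2.85 higher in erCriz0 than in erAlec0, with changes of 1.82 and −1.03. At NRG1, the peak starting at 31794366 differed by 2.33, that at 31803368 by 2.32, that at 31809968 by 2.50 and that at 31973494 by 2.40 between erCriz0 and erAlec0. Between erCriz0 and erLor0, the peak at 31809968 differed by 2.65 and that at 31973494 by 2.41.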

How the results depend on the processing

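A value counts here as moved if it changed by 0.1 or more on the log2 scale, and a count if it changed by more than 1.5 times. Of 432 values under other settings, 305 stayed within these bounds, and no called value changed sign. For single members, the sign differed from that reported in 2 of 81 RNA values and 15 of 207 median peak values, where the reported size was at most 0.30.

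Shares over all genes and all peaks at limits of 1.5-fold and 2 were not computed. The counts at these limits thus have no general rate beside them. With a limit of 1.5-fold, the members up in RNA numbered 3, 4 and 2 in erCriz0, erAlec0 and erLor0, with 1 down in each line. With a limit of 2, none was up or down. The other pathway genes up numbered 6, 6 and 3 at 1.5-fold and those down 2, 4 and 1. At a limit of 2, 0 were down in erCriz0 and 0 up or down in erAlec0, and under quantile normalization 1 was up in erAlec0. Member peaks up numbered 47, 18 and 12 at 1.5-fold and 4, 0 and 0 at a limit of 2, and those down 15, 39 and 36, and 0 in each line. Without the peaks of NRG1, 6 were up in erCriz0 and 3 in erLor0, and 8 were down in erAlec0 and 5 in erLor0. With peaks within 5 kb, 3 were down in erCriz0. With peaks paired with 1 gene, 0 were down in erCriz0 and 12 in erAlec0. That filter takes out all 24 peaks of ERBB2 and 15 of the 16 of ERBB3. These filters leave fewer member peaks, and shares over all peaks under the same filters were not computed.

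The median over member peaks in erCriz0 was 0.46 with peaks paired with 1 gene and 0.12 without those of NRG1. In erLor0 it was −0.21 after centring, −0.19 after quantile normalization, −0.18 with peaks at the read minimum, −0.21 with the level trend removed and −0.21 without those of NRG1. The cause of these moves was not tested. No paired analysis was possible because the result comes from no test. With 1 library per line and unknown depth, neither biological nor technical spread can be given.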
